A study of Homo sapiens with 2 samples.

Results

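The genes described here regulate the cell division cycle: cyclins, cyclin-dependent kinases (CDKs), the proteins that inhibit or switch these kinases, and the E2F transcription factors with the RB proteins that restrain them. They were chosen by name, from a list of 56 genes, and not by their measured values. Of the 56, 48 had a probe set (a group of array probes) that the platform annotation ties to that gene alone, out of 14232 such genes on the array. CCNF, CCNK, CDK4, CDK7, CDK9, RBL2 and TFDP1 were named only on probe sets shared with other genes, and CDKN2C is not analysed here. The samples were 2 established human cell lines of diffuse large B cell lymphoma, SUDHL6 and HT, grown untreated in the same serum-containing RPMI medium, with total RNA from each hybridised to 1 Affymetrix exon array. Per the series title, the arrays belong to a study of lymphoma cells and a compound that inhibits PRC2, a chromatin complex that silences genes.

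Cyclins are made and destroyed in turn through the cycle, and each activates the CDKs it binds. D-type cyclins with CDK4 and CDK6, then cyclin E with CDK2, phosphorylate RB proteins and so free E2F factors to switch on genes for DNA replication. Cyclin A and cyclin B with CDK2 and CDK1 then carry the cell through replication and into mitosis. INK4 and CIP/KIP proteins bind and inhibit the kinases. A further set of cyclin and CDK pairs does not drive division but phosphorylates RNA polymerase II and other parts of the transcription machinery. Loss of RB pathway restraint is a common feature of cancers.

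All values are log2 expression values after RMA, an array method that corrects background, normalizes and summarises probes, so a difference of 1 is a 2-fold difference. Differences are SUDHL6 minus HT. With 1 array for each line there is no spread between replicates, so no test was possible and no difference below has an error of its own. The dim level, a mark for unexpressed genes, is the 95th percentile of 225 olfactory receptor genes, at 3.81 in SUDHL6 and 4.11 in HT. The lines were counted as different in a gene where they lay at least 1 apart and the larger value was not below the dim level of that line. As a guide to the noise of dim probe sets, 17 of the 225 olfactory receptor genes (7.56%) differed by at least 1.

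The labelled origin was set against cell type markers. All 6 B cell markers with a value (CD22, CD74, CD79A, CD79B, MS4A1 and PAX5) lay above the dim level in both, at 5.55 to 11.33 in SUDHL6 and 5.23 to 10.07 in HT. Of these 6, 1 differed by at least 1, MS4A1, at 11.33 in SUDHL6 and 8.75 in HT. The T cell markers CD2, CD3D and CD3E and 4 myeloid markers were below the dim level in SUDHL6 and in HT. The other 2 of the 5 T and NK cell markers were above it in SUDHL6 and in HT, CD7 at 5.49 and 5.73 and NKG7 at 4.91 and 5.30. The fibroblast markers DCN and LUM were above it in HT alone, at 5.05 and 6.22, against 2.09 and 2.38 in SUDHL6. From the same list, the collagen genes COL1A1 (4.47 and 4.44) and COL1A2 (4.55 and 4.61) were above it in SUDHL6 and in HT, and PECAM1 was below it in both. The epithelial keratin KRT8 was above it in both, at 8.27 and 8.12, while EPCAM, CDH1 and KRT18 were below. Of the 2 erythroid and platelet markers with a value, GP9 lay above the dim level in both, at 4.98 and 5.05, and HBB below it in both. Whether these markers have any part in the differences below was not tested.

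Of the 48 cell cycle regulators, 43 either differed by less than 1 or were dim, and 5 differed by at least 1. E2F7, CDK13 and CDK19 were higher in SUDHL6, and CDK1 and CCNG2 were higher in HT. The 3 genes higher in SUDHL6 were 6.25% of the 48 measured, and 3.5% of all 14232 genes were called in that direction. The 2 genes higher in HT were 4.17%, and 4.62% of all genes were called. Together the regulators called were 10.4%, against 8.12% of all genes. Among genes with a value at or above the dim level, 5 of 46 regulators (10.9%) and 12.3% of 9405 genes were called, so the share of regulators that differed was near that of genes in general. The split between directions moved with the scaling of the arrays, from 3 and 2 genes to 4 and 1 under quantile normalization and to 4 and 0 under loess.

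Of the 48 regulators, 28 had the higher value in HT and 20 in SUDHL6, so 41.7% were higher in SUDHL6. Of all 14232 genes, 7534 had the higher value in HT and 6157, or 43.3%, in SUDHL6, and the counts of signs given for each group below stand beside that share. Their median difference was -0.16, and that of all genes was -0.04. The differences ran from -1.10 for CDK1 to 1.76 for E2F7. CCND2 and CCNA1 were dim in SUDHL6 and HT alike, and the other 46 reached it in at least the line with the higher value. Genes at a mean level of 6 to 8 spread widely in these arrays: 14.5% of 2595 such genes differed by at least 1. So did 4 of the 16 regulators in this range. At a mean level of 4 to 6, 10.2% of 5190 genes and 1 of 17 regulators differed by at least 1. At 8 or more, 10.3% of 1029 genes and 0 of 13 regulators did. In dividing cell lines, a difference in how many cells are in a phase and a difference in RNA per cell cannot be told apart.

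**Figure D1:**
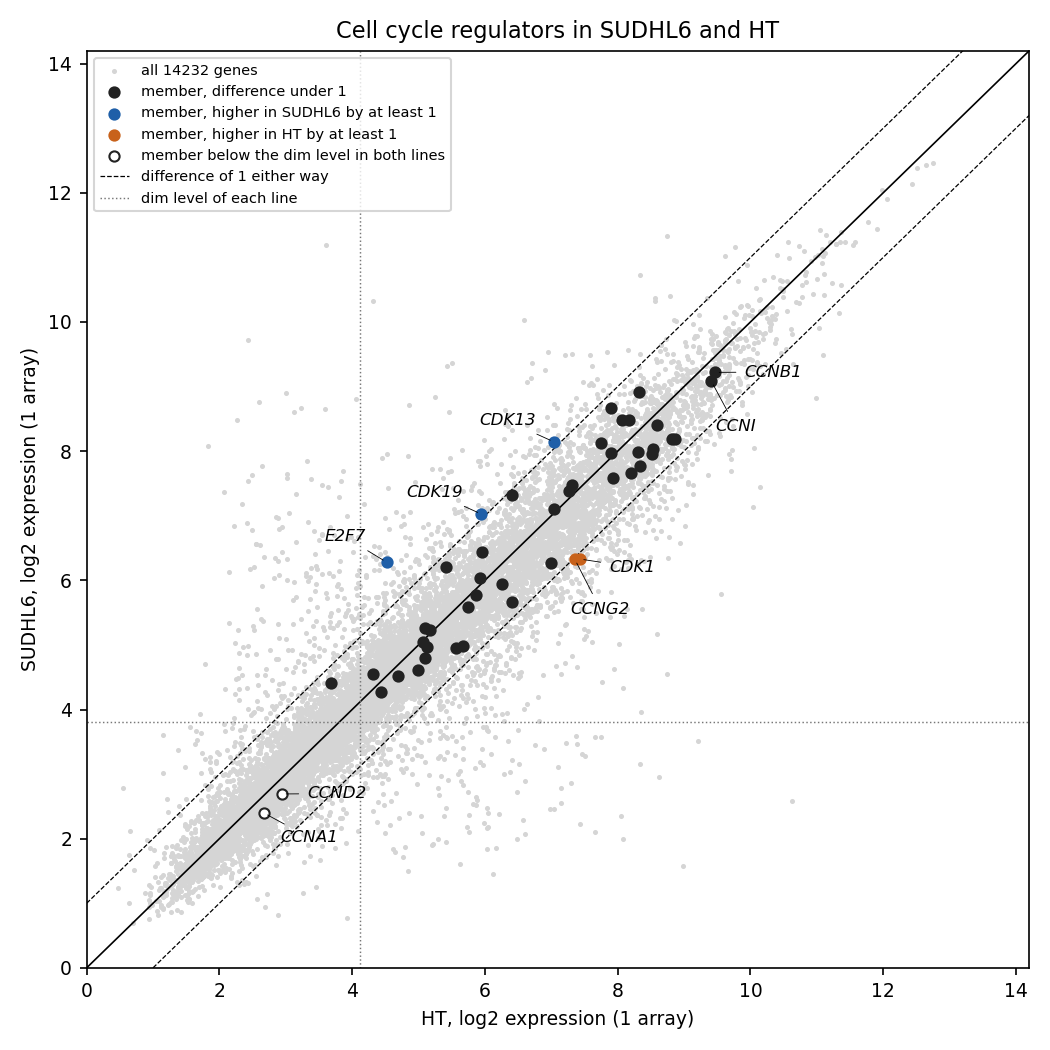
Each point is 1 gene, with its log2 expression in HT on the horizontal axis and in SUDHL6 on the vertical axis, from 1 array per line. Grey points are all 14232 genes, dark points are the regulators with a difference under 1, blue and orange points are the 5 that differed by at least 1, and open points are CCND2 and CCNA1 below the dim level. Most regulators lie between the dashed lines that mark a difference of 1.

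The first kinases of the cycle differed little. CDK6, which pairs with D-type cyclins, stood at 7.11 in SUDHL6 and 7.04 in HT. CCND3, the D-type cyclin of germinal centre B cells, stood at 5.78 and 5.86, and the sign of this difference of -0.08 turned to 0.01 under another scaling. CCND1, the D-type cyclin of mantle cell lymphoma, stood at 4.53 and 4.69 on its own probe set. A probe set that CCND1 shares with its neighbour LTO1 read 4.86 and 5.71, and another shared one read 3.39 and 3.48. CCND2 stood at 2.69 and 2.94, below the dim level. None of the 4 genes of this group with a value of their own reached a difference of 1. CDK4, the other kinase of the D-type cyclins, was read only with TSPAN31, at 8.63 and 9.10.

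Cyclins E and A and their kinase CDK2 gave a similar picture. CDK2 stood at 7.48 in SUDHL6 and 7.31 in HT. CCNE1 was at 5.23 and 5.17 and CCNE2 at 7.99 and 8.31, so the 2 E-type cyclins differed by 0.06 and -0.32. CCNA2, the cyclin A of dividing body cells, stood at 8.19 and 8.81, 1.54-fold higher in HT. CCNA1, a cyclin of the male germline, stood at 2.40 and 2.67, below the dim level. No gene of these 5 differed by at least 1.

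CDK1, the kinase that drives entry into mitosis, was 2.14-fold higher in HT. Its probe set (3248289, chromosome 10) stood at 6.33 in SUDHL6 and 7.43 in HT. Of the 9405 genes at or above the dim level, 992 (10.5%) differed by at least as much in either direction. After loess the difference of CDK1 was -0.97, just under 1. The 2 B-type cyclins that activate CDK1 differed less: CCNB1 stood at 9.22 and 9.47 and CCNB2 at 8.41 and 8.59.

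The phosphatases and the kinase that switch CDK1 on and off did not share a direction. CDC25A, which removes inhibitory phosphate from CDKs, stood at 5.66 in SUDHL6 and 6.40 in HT, and CDC25C, which acts at mitosis, at 4.98 and 5.68. Both were higher in HT, 1.67-fold and 1.62-fold. CDC25B, the third phosphatase, stood at 6.04 and 5.93. WEE1, the kinase that places the inhibitory phosphate on CDK1, went the other way, at 8.92 and 8.32, 1.52-fold higher in SUDHL6. In all, 5 of the 7 measured genes of this mitotic group had the higher value in HT, with a median of -0.25, and the order of signs was the same under the 3 other scalings. CDK1 was the 1 member of the group that reached a difference of 1.

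The RefSeq promoter windows of CDK1 and CCNB2 are printed because these partner genes both carry a short element of mitotic promoters, yet differed by unlike amounts. Each window holds 250 bases before and 50 after a transcription start in assembly GRCh38.p14, on the strand of the gene. CDK1 lies at chr10:60778228-60778527 (plus strand), the later of its 2 windows, and CCNB2 at chr15:59104896-59105195 (plus strand). Capitals mark matches, on either strand, to the CHR element (TTTGAA) or to the E2F consensus (TTTCCCGC, TTTCGCGC, TTTGCCGC or TTTGGCGC). No 2 matches overlapped in the windows printed.
CDK1: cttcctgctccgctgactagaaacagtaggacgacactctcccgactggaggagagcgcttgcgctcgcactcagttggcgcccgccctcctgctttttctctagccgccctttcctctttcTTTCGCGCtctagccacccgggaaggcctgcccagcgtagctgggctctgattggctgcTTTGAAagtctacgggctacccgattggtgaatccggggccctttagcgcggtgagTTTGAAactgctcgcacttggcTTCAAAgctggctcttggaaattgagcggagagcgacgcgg
CCNB2: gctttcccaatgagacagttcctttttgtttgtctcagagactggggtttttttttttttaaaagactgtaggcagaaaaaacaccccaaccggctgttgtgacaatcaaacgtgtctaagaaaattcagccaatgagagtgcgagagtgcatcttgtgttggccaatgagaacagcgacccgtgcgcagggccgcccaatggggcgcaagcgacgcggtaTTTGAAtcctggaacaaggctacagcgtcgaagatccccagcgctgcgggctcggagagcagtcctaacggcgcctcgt

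The CDK1 window held an E2F match starting 128 bases before the start site, CHR matches 69 and 13 bases before it, and a CHR match on the other strand 9 bases after it. The CCNB2 window held a CHR match starting 29 bases before the start and no E2F match. CDK1, at a difference of -1.10, and CCNB2, at -0.18, thus share the CHR letters. Of 35116 RefSeq windows, 15.2% held the CHR letters and 3.31% an E2F match. RefSeq windows were found for 48 of the 56 listed genes, 74 windows in all, and 17.6% of these held CHR letters and 12.2% an E2F match. Windows of 1 gene can overlap, so they are not independent. The genes with an E2F match were CDC25A, CDK1, CDK19, E2F1, E2F2, E2F3, RBL1 and TFDP1.

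The measured CDK inhibitors showed no difference of 1 or more. CDKN1A, the p53-induced inhibitor p21, stood at 5.04 in SUDHL6 and 5.07 in HT, and the sign of this small difference turned under another scaling. CDKN1B, the inhibitor p27 of resting cells, stood at 4.61 and 4.99. CDKN1C stood at 4.27 and 4.43. The CIP/KIP genes thus differed by at most 0.38 between the lines.

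The INK4 genes, whose proteins block CDK4 and CDK6, were also close. CDKN2A, which encodes p16 and, in another reading frame, ARF, stood at 4.55 in SUDHL6 and 4.31 in HT. CDKN2B, its neighbour on chromosome 9, stood at 5.10 in HT and 4.80 in SUDHL6. CDKN2D stood at 5.59 and 5.75. A value above the dim level is not taken here as proof that an INK4 gene was expressed. The single value of CDKN2A does not separate its 2 products.

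RB1, the founding RB protein gene, stood at 7.77 in SUDHL6 and 8.33 in HT, 1.47-fold higher in HT. RBL1, which encodes p107, stood at 7.58 and 7.93. Both measured RB family genes were lower in SUDHL6 by less than 1. RBL2 (p130) was read only on a probe set shared with AKTIP, at 6.48 and 6.37. TFDP2, which encodes a dimerisation partner of E2F, stood at 6.27 and 6.99, 1.65-fold higher in HT. Its relative TFDP1 shared a probe set with TFDP3, which read 9.75 and 9.58.

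The E2F genes held the largest difference of all the regulators. E2F7, an atypical E2F that represses E2F target genes, was 3.39-fold higher in SUDHL6. Its probe set (3463112, chromosome 12) stood at 6.28 in SUDHL6 and 4.52 in HT. Of the 9405 genes at or above the dim level, 416 (4.42%) differed by at least as much. E2F7 was the 1 regulator still counted at a threshold of 1.5. E2F8, the other atypical E2F, which can pair with E2F7, stood at 8.13 and 7.75, a difference of 0.38.

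The other E2F genes differed by less than 1, in both directions. Among the activating E2Fs, E2F3 stood at 6.20 in SUDHL6 and 5.42 in HT, 1.72-fold higher in SUDHL6. E2F1 stood at 5.94 and 6.25 and E2F2 at 5.27 and 5.10. Among the repressing E2Fs, E2F4 stood at 4.96 and 5.56, 1.52-fold higher in HT, and E2F5 at 7.38 and 7.26. E2F6, which represses without RB proteins, stood at 4.41 in SUDHL6 and 3.68 in HT, where it lay below the dim level. In all, 4 of the 5 repressing E2F genes and 2 of the 3 activating ones had the higher value in SUDHL6, in these arrays as scaled by the authors and under the 3 other scalings.

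The E2F7 promoter window is printed because this gene differed most and E2F7 is known as an E2F target. It lies at chr12:77065520-77065819 (minus strand, GRCh38.p14) and is written on the strand of the gene. It held no match to the E2F letters or the CHR letters used above, which says only that these letters are not in this window. It is rich in G and C, at 70.7%, compared with 59.3% for the CDK1 window and 52% for that of CCNB2.
E2F7: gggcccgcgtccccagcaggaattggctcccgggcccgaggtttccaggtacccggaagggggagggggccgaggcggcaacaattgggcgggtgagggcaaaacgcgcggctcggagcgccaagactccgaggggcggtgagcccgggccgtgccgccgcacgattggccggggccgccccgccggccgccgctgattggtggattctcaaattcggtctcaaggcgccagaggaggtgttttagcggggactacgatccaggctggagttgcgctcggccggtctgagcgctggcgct

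**Figure D2:**
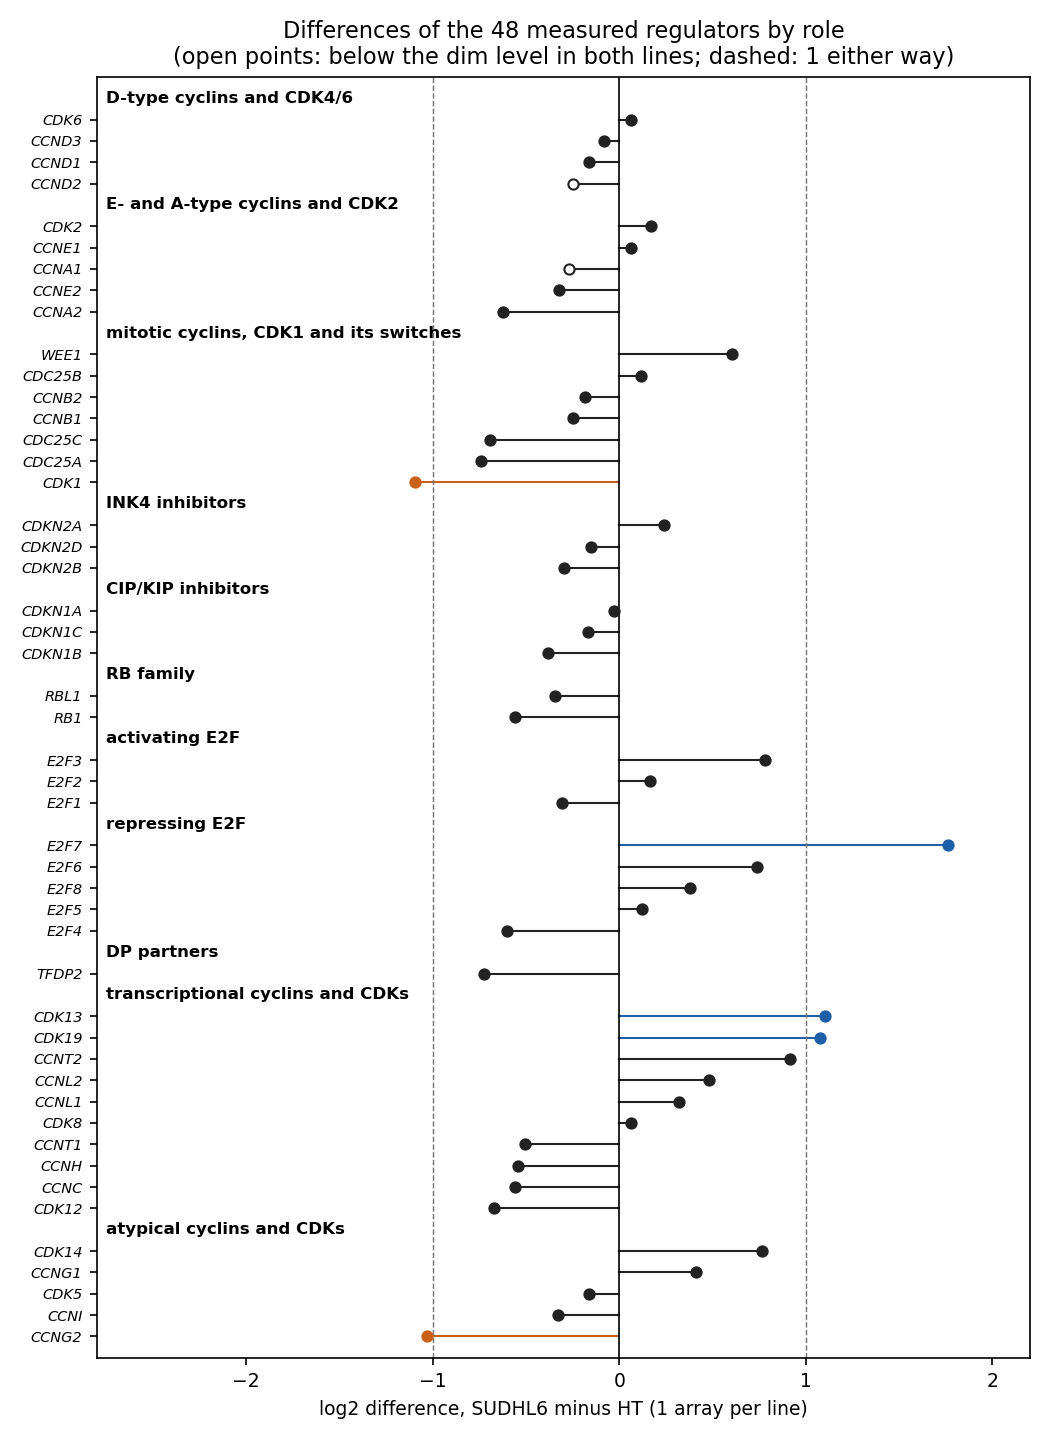
Each row is 1 of the 48 measured regulators, grouped by role, and the horizontal axis is the log2 difference, SUDHL6 minus HT, from 1 array per line. Blue points (E2F7, CDK13 and CDK19) and orange points (CDK1 and CCNG2) passed a difference of 1, marked by dashed lines, and open points are CCND2 and CCNA1, dim in both. The mitotic group lies mostly to the left of 0 and the repressing E2F group mostly to the right.

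Among the cyclins and CDKs of transcription, 2 kinases were higher in SUDHL6 by at least 1. CDK13, which pairs with cyclin K and phosphorylates RNA polymerase II, was 2.15-fold higher. Its probe set (2998536, chromosome 7) stood at 8.14 in SUDHL6 and 7.04 in HT. Its close relative CDK12 went the other way, at 8.19 and 8.86. Cyclin K itself, CCNK, was read with CCDC85C, at 8.18 and 8.94.

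CDK19, a kinase of the Mediator complex, was 2.11-fold higher in SUDHL6. Its probe set (2969467, chromosome 6) stood at 7.03 in SUDHL6 and 5.95 in HT. CDK8, which can take its place in Mediator, stood at 7.97 and 7.90. CCNC, the cyclin of both kinases, stood at 7.96 and 8.52, 1.47-fold higher in HT. The kinase CDK19 was thus higher in SUDHL6 by at least 1, while its cyclin was higher in HT by less than 1.

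CCNT2, a cyclin of the elongation factor P-TEFb, stood at 7.33 in SUDHL6 and 6.41 in HT, 1.88-fold higher in SUDHL6. Its difference of 0.91 was the nearest to 1 among the regulators not called, and it passed 1 after quantile normalization (1.01) and loess (1.04). CCNT1, the alternative cyclin of P-TEFb, stood at 8.03 and 8.54, a difference of -0.51. The kinase of P-TEFb, CDK9, was read on a probe set shared with MIR2861, at 5.58 and 5.75.

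CCNH, the cyclin of the CDK-activating kinase, stood at 7.66 in SUDHL6 and 8.20 in HT, and its kinase CDK7 was read with CCDC125, at 6.18 and 5.99. The splicing-linked cyclin CCNL1 stood at 8.49 and 8.17. CCNL2 was the 1 regulator with more than 1 probe set of its own. These read 6.44 against 5.96 and 4.89 against 4.65, so both were higher in SUDHL6, by 0.48 and 0.24. Of the 10 measured genes of this transcriptional group, 6 had the higher value in SUDHL6, with a median of 0.19. That median was 0.31 after quantile normalization and 0.30 after loess. With the probe sets that name several genes included, 7 of 13 were higher in SUDHL6 and the median was 0.06.

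CCNG2, an atypical cyclin linked to cell cycle arrest, was 2.04-fold higher in HT. Its probe set (2732391, chromosome 4) stood at 6.32 in SUDHL6 and 7.35 in HT. The call was lost after quantile normalization (-0.93) and loess (-0.90). CCNG1, a p53 target and the relative of CCNG2, stood at 8.48 and 8.07, higher in SUDHL6. CCNI, another atypical cyclin, stood at 9.08 and 9.41, and CDK5, best known from neurons, at 4.97 and 5.13. CDK14, a partner of cyclin Y, stood at 8.67 and 7.91, 1.70-fold higher in SUDHL6.

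The differences of close relatives were set side by side in 14 pairs, which were picked with their values known. In 7 pairs both differences had the same sign and in 7 they had opposite signs, and 6 pairs were at least 1 apart. The widest gap was between CDK12 and CDK13, at 1.78, followed by CCNG1 and CCNG2 at 1.44, CCNT1 and CCNT2 at 1.42 and E2F7 and E2F8 at 1.38. E2F1 and E2F3 were 1.09 apart and CDK8 and CDK19 1.02. Other pairs were close: CCNB1 and CCNB2 were 0.07 apart and CDC25A and CDC25C 0.04.

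**Figure D3:**
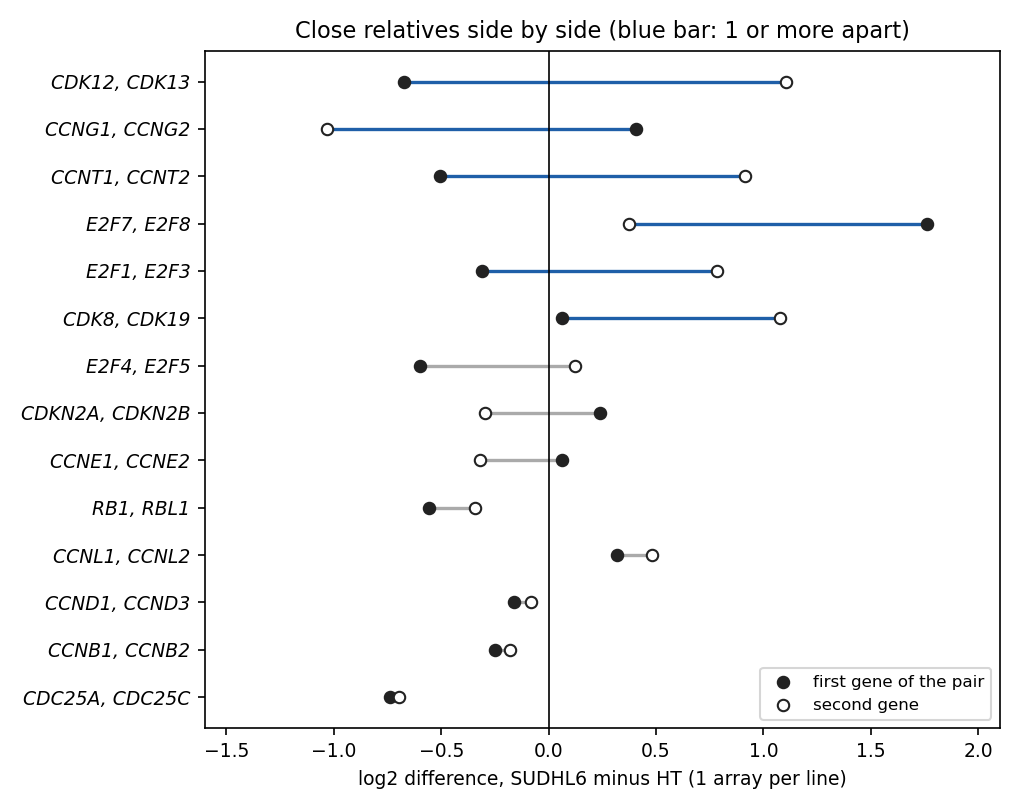
Each row is a pair of related genes, the horizontal axis is the log2 difference, SUDHL6 minus HT, from 1 array per line, and the bar joins the first gene (filled) to the second (open). Blue bars mark the 6 pairs at least 1 apart, from CDK12 and CDK13 with a gap of 1.78 to CDK8 and CDK19 with 1.02.

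CCNG2, CDK1 and CDK13 lay among genes whose median difference had the same sign as their own. For each regulator, the 5 nearest genes at or above the dim level on each side in RefSeq order were taken. The counts below stand beside all 9405 genes at or above that level. Of these, 657 were higher in HT by at least 1 and 498 in SUDHL6, 12.3% together. Of the 10 genes around CCNG2 on chromosome 4, 5 were higher in HT by at least 1 and 1 in SUDHL6, and their median difference was -0.86. Among them, MRPL1, a mitochondrial ribosomal protein gene, stood at 5.05 in SUDHL6 and 7.61 in HT. NUP54, a nuclear pore gene, stood at 6.04 and 7.05. CCNI lies beside CCNG2 and shares 8 of its neighbours. Of the 10 neighbours of CCNI, 7 were higher in HT by at least 1, CCNG2 among them, and 1 in SUDHL6. The shared genes enter both counts, so these counts are not independent. CCNI itself differed by -0.33.

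CCNA2, elsewhere on chromosome 4, had 5 of 10 neighbours higher in HT by at least 1 and 1 in SUDHL6, with a median of -1.01. Its own difference was -0.62. EXOSC9, an exosome subunit gene beside it, stood at 7.58 in SUDHL6 and 8.79 in HT, and the mitotic checkpoint gene MAD2L1 at 6.91 and 7.29. CDK1 on chromosome 10 had 4 of 10 neighbours higher in HT by at least 1, with a median of -0.77. TFAM, a mitochondrial DNA-binding factor gene near CDK1, stood at 8.82 and 10.99. Of the 10 neighbours of CDK1, 8 had the higher value in HT and 2 in SUDHL6. Those 2, ANK3 and RTKN2, were higher in SUDHL6 by 0.995 and 0.92, each just under 1. CDK13 had 3 of 10 higher in SUDHL6 by at least 1, with a median of 0.56.

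E2F7 and CDK19 stood at least 1 above the median of their surroundings. The 10 neighbours of E2F7 had a median of -0.20, and E2F7 lay 1.96 above it. Of the 10, 7 had the higher value in HT and 3 in SUDHL6. By at least 1, 0 were higher in HT and 1 in SUDHL6. That gene, TMTC2, stood at 5.12 in SUDHL6 and 3.62 in HT. The neighbours of CDK19 had a median of -0.13, and CDK19 lay 1.21 above it. After the neighbour median was subtracted, these 2 of the 5 called regulators were still past 1, whereas CDK13 (0.54), CDK1 (-0.33) and CCNG2 (-0.17) were not. Over all 48 regulators, 22 had the sign of their neighbour median. Chromosome copy number was not measured, and its part in these differences was not tested.

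**Figure D4:**
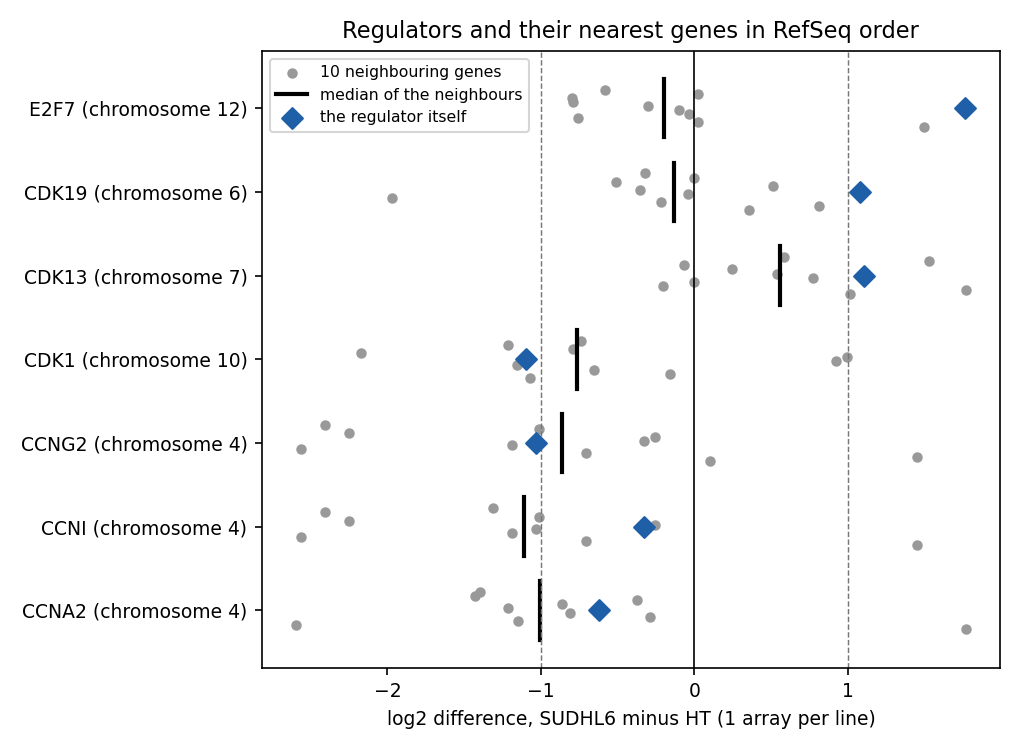
Each row is a regulator (blue diamond) with its 10 nearest genes at or above the dim level (grey) and their median (black bar), and the horizontal axis is the log2 difference, SUDHL6 minus HT, from 1 array per line. E2F7 and CDK19 lie far to the right of their neighbours' medians of -0.20 and -0.13. Of the 10 neighbours each of CDK1 and CCNG2, 8 have the higher value in HT and 2 in SUDHL6.

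The rest of the cell cycle machinery was read from 7 lists with 96 measured genes. Of these 96, 4 were higher in SUDHL6 by at least 1 and 3 in HT, 7.29% together, against 8.12% of all genes. Counted over genes at or above the dim level, this was 8.05% of 87, against 12.3% of all such genes. Among 18 origin licensing and firing genes, MCM3, a subunit of the replicative helicase, was 2.18-fold higher in SUDHL6 (8.65 against 7.52). CDC45, which activates that helicase, was 2.31-fold higher in HT (6.78 against 7.99). In the list of nucleotide supply and DNA synthesis, 10 of 13 genes had the higher value in SUDHL6, with a median of 0.08. RRM2, a ribonucleotide reductase subunit gene, was 2.62-fold higher there (11.02 against 9.62).

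Among mitosis and spindle checkpoint genes, 12 of 16 had the higher value in HT, with a median of -0.17. The exception past 1 was CENPA, the histone variant of centromeres, which was 2.19-fold higher in SUDHL6 (7.07 against 5.94). CDC20, an activator of the ubiquitin ligase that destroys cyclin B, was 2.64-fold higher in HT (6.51 against 7.92). In its list of ubiquitin ligases and CDK accessory factors, 10 of 15 genes had the higher value in HT, with a median of -0.36. The counts of signs in these lists were not repeated under the other scalings. Some signs rest on small differences, such as -0.04 for INCENP in the mitosis list. CKS2, a small protein that binds CDK1, stood at 9.51 and 10.46, just under a difference of 1.

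CCNY, the cyclin of CDK14, was 3.18-fold higher in HT (4.84 against 6.51), the reverse of CDK14. It was the 1 gene called of 15 further cyclins and CDKs, 6 of which lay below the dim level. GADD45A, a stress-induced arrest gene, was 3.56-fold higher in SUDHL6 (6.05 against 4.22), and its value in HT lay just above the dim level of that line. Any relation between GADD45A and the values of CDK1 was not tested. In the same list, MYC stood at 7.62 and 7.01 and MDM2 at 7.61 and 7.40. Of the MuvB core, which joins RB proteins and E2Fs in a repressor complex, and its partners, 5 genes were measured and 0 differed by at least 1. However, 1 of the 5 lay below the dim level in SUDHL6 and in HT. FOXM1, a mitotic activator in that list, stood at 6.96 and 6.83.

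**Figure D5:**
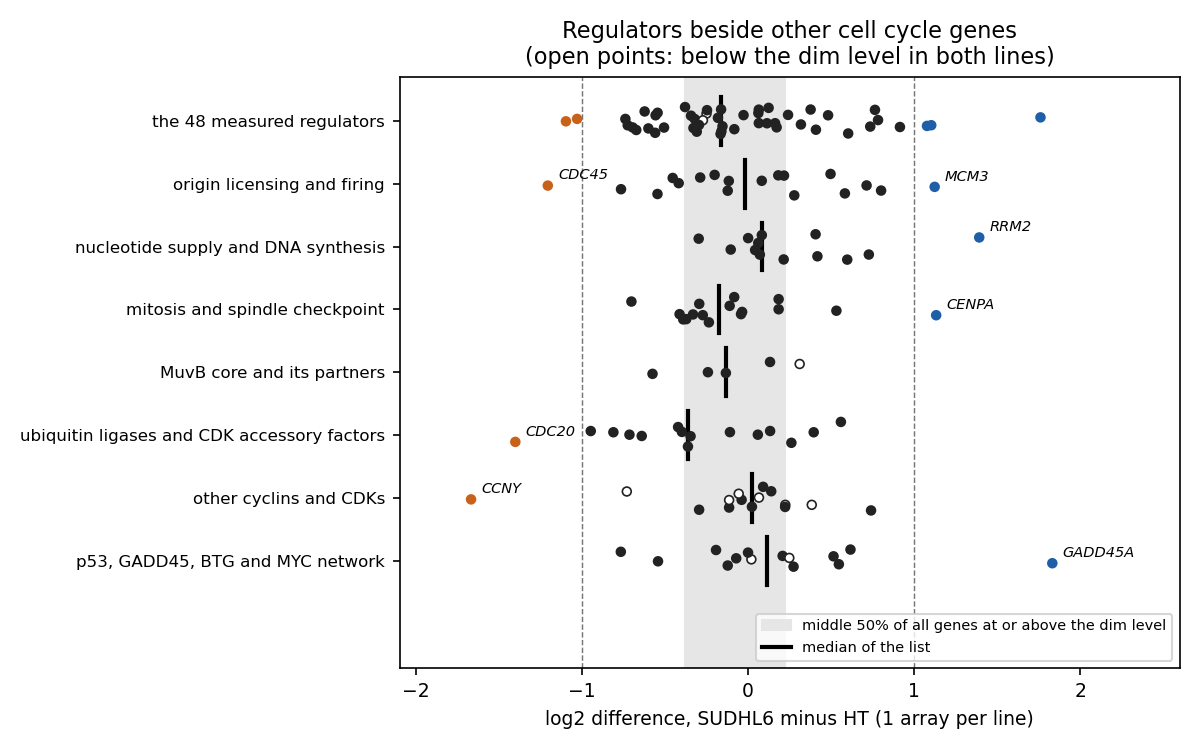
Each point is 1 gene, the rows are the 48 regulators and 7 lists of other cell cycle genes, and the horizontal axis is the log2 difference, SUDHL6 minus HT, from 1 array per line. Black bars are medians, the grey band runs from -0.38 to 0.22 and holds the middle 50% of all genes at or above the dim level, and dashed lines mark a difference of 1. The medians of all rows lie inside the band, and 7 genes outside the regulators pass a dashed line.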

How the data were processed

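The authors deposited log2 expression values of 22011 probe sets for 2 arrays, 1 per cell line. Per the submitters' processing notes, RMA and the Affymetrix Expression Console were used. Their versions and settings, the build and the size of the RMA batch are not stated in the sources at hand. Depth does not apply to arrays, and their number limits the precision.

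Probe sets were named from the platform annotation (14432 with 1 gene, 2408 with several, 5171 unnamed) and updated through gene numbers to RefSeq of GRCh38.p14, which matched 14404. Each gene took its probe set with the highest mean, which gave 14232 genes. Promoter sequences are from RefSeq. The counting was tested on simulated data. Their noise was smaller than the spread of the olfactory receptor genes, so this checked the counting and not the error of a call. Python 3.11.15 with pandas 2.3.3 and statsmodels 0.14.6 was used.

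The members, lists and alternatives were chosen with earlier results of these data known. Named were every regulator, and up to 3 genes of each other list with a difference of at least 1. MRPL1, NUP54, EXOSC9, MAD2L1, TFAM, ANK3, RTKN2, TMTC2, INCENP, CKS2, MYC, MDM2, FOXM1, STK38 and SRSF3 were picked after their values were seen.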

Additional observations from a re-analysis of the deposited data

How the results depend on the processing

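The 3 regulators higher in SUDHL6 (E2F7, CDK13 and CDK19) and the 2 higher in HT (CDK1 and CCNG2) were the same genes after centring each array on its median, with no dim level, with the dim level at the 99th percentile, with dim values set to that level, and under the 3 other choices of probe set. Most of these alternatives could hardly change the 5 calls. Each of the 5 genes has 1 probe set, with both values above the dim level. The choices of dim level and probe set therefore leave their values unchanged, and centring shifts every gene alike. The 2 scalings that act differently on different genes did change the list. After quantile normalization 1 was higher in HT, and after loess 0, while 4 were higher in SUDHL6 under each, CCNT2 being the fourth. At a difference of 0.5, 8 regulators were higher in SUDHL6 and 12 in HT, and at 1.5, 1 and 0. For the other cell cycle genes these counts were 15 and 13 at 0.5, and 1 and 1 at 1.5. The median difference of the regulators at or above the dim level, -0.16, stayed between -0.16 and -0.08. Of the 48 regulators, 46 kept their sign under every alternative, the exceptions being CCND3 and CDKN1A. Quantile normalization and loess moved the median of all genes by 0.05 and 0.06. No paired analysis was possible because each line had 1 array. Without replicates, none of these alternatives measures the error between cultures.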

Other observations

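CDKN1A on chromosome 6 lay among genes that were higher in SUDHL6, although its own difference was -0.03. All 10 of its nearest genes at or above the dim level had the higher value in SUDHL6, 4 of them by at least 1, with a median difference of 0.65. The kinase gene STK38 stood at 8.94 in SUDHL6 and 7.78 in HT there, and the splicing factor gene SRSF3 at 9.51 and 8.84. Of the 488 genes of chromosome 6 at or above the dim level, 13.7% were higher in SUDHL6 by at least 1 and 4.3% in HT, and the median was 0.26. Of all 9405 genes at or above the dim level, 498 were higher in SUDHL6 by at least 1 and 657 in HT. Together these were 12.3%, and the median of the 9405 was -0.05. The chromosome carries 5 measured regulators, of which CDK19 and E2F3 had higher values in SUDHL6 (1.08 and 0.78), while CCND3 (-0.08), CDKN1A and CCNC (-0.56) did not.

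Chromosome 4, which carries CCNA2, CCNG2 and CCNI, held many differences in both directions. Of its 323 genes at or above the dim level, 14.9% were higher in HT by at least 1 and 13.9% in SUDHL6, and the median was -0.07. On chromosome 10, which carries CDK1, 17.4% of 357 genes were higher in HT by at least 1 and 5.04% in SUDHL6, with a median of -0.27. On chromosome 7, which carries CDK5, CDK6, CDK13 and CDK14, 1.84% of 434 genes were higher in HT and 8.99% in SUDHL6, with a median of 0.12. These shares stand beside the 657 genes higher in HT and 498 higher in SUDHL6 among all 9405 at or above the dim level, 12.3% together. What underlies these chromosome-wide values was not tested.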
